A study of Mus musculus with 6 samples.

Results

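Antibody heavy chain variable (V) segments were described in mouse marrow cells that a sort defined as long-term haematopoietic stem cells, which should carry no lineage markers. The segments were the rows of the deposited table that the annotation classes as functional immunoglobulin V genes, that carry an Ighv symbol and that had at least 1 count in any of the 6 libraries. Of 113 such rows 101 had a count, out of 53465 genes in all. The segments were selected on their counts, so the number detected over all libraries is a description. Just inside the limit lay Ighv3-4 with 1 count, then Ighv1-43 and Ighv8-11 with 2 counts each over the 6 libraries, and just outside it lay 12 segments with 0 counts.

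All mice were wild type and underwent 5.0 Gy total body irradiation. They were then given saline in one group and carnosine, a dipeptide abundant in muscle, in the other, with 3 libraries in each. No unirradiated mice are among these samples, so both groups share the radiation. Strain, age and pooling of mice are not given in the labels. Nothing in the labels tells whether each library is a mouse of its own, so the p-values rest on a spread between libraries that may be technical. The sort kept Lineage-, Sca-1+, c-Kit+, Flk2-, CD34- cells. Library totals ran from 12602067 to 16866534 counts. Counts scaled to library size (CPM) are given on the scale of edgeR's TMM factors.

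A heavy chain gene is assembled in developing B cells by joining 1 V segment to a D and a J segment, after which the V exon is transcribed together with a constant gene. Because each B cell clone keeps its own join, the set of V segments in RNA reflects the cells that express antibody genes, and plasma cells hold far more antibody RNA than other B cells. Unjoined V segments can also be transcribed in early B-cell progenitors before joining. The table counts reads per segment and does not separate joined from unjoined transcripts.

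The 101 segments lay on chromosome 12 of GRCm38, all on the minus strand, over a span of 2421.96 kb. Their positions were the ones given by the GENCODE M21 annotation. The V segments at the low-coordinate end lie nearest the D, J and constant genes. Ighv5-2, at the D-proximal end, began at 113578504, and Ighv1-85, at the far end, ended at 116000461. The segments fell into 15 subgroups by sequence, and Ighv1, called the J558 family in older work, was the largest with 50. Many V exons are close copies: the median identity to the closest other segment was 95.1%, and 53 segments had a partner at least 95% identical. The counting rule for reads that fit several segments is not known here, so values of close copies are uncertain.

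The sequences below are shown because some close copies differed in their response in opposite or unequal ways. Each is the last 290 bases of the V exon, 5′ to 3′ on the minus strand of GRCm38, from the GENCODE M21 transcripts. Capitals mark the positions at which the segments of a set differ. The first set is subgroup Ighv8, in which Ighv8-5 (chr12:115067560-115067849) fell while Ighv8-8 (chr12:115294062-115294351) and Ighv8-12 (chr12:115647945-115648234) rose. These 3 differ at 23 positions of this window.
Ighv8-5: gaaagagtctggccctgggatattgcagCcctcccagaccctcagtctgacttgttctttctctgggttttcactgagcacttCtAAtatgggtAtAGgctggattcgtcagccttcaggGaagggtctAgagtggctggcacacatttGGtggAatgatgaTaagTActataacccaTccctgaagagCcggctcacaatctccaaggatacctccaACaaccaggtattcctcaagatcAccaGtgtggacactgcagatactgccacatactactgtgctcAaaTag
Ighv8-8: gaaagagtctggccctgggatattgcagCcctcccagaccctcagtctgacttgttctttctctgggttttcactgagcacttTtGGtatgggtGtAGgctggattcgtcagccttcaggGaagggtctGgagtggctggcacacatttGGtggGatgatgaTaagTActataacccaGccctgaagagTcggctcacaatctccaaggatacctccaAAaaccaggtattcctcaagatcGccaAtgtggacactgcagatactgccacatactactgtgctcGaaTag
Ighv8-12: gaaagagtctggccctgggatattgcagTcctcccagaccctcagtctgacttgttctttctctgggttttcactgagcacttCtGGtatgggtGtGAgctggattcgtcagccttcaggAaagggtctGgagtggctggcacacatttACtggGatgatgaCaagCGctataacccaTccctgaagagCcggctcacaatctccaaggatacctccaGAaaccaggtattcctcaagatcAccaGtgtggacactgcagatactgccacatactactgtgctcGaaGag
The second set is from subgroup Ighv2, the Q52 family, in which Ighv2-2 (chr12:113588267-113588556) rose and Ighv2-5 (chr12:113685482-113685771) fell, with 9 differing positions.
Ighv2-2: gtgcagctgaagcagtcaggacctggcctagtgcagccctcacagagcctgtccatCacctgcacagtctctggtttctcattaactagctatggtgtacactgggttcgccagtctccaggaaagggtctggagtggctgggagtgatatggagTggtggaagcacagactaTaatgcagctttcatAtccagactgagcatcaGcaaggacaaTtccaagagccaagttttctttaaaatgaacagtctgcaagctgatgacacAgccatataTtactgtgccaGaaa
Ighv2-5: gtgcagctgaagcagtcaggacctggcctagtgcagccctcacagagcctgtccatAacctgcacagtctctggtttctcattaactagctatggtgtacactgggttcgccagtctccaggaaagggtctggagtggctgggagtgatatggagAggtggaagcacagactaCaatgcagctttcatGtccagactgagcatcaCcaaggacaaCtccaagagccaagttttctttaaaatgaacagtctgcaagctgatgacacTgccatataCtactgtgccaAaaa
The third set is Ighv14-1 (chr12:113931953-113932242), Ighv14-2 (chr12:113994469-113994758) and Ighv14-4 (chr12:114176438-114176727), which differ at 15 positions.
Ighv14-1: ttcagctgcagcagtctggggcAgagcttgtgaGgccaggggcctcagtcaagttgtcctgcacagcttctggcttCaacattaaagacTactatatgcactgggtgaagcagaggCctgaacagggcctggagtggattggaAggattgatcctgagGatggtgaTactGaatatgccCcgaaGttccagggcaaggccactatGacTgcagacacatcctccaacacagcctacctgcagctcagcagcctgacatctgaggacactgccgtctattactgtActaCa
Ighv14-2: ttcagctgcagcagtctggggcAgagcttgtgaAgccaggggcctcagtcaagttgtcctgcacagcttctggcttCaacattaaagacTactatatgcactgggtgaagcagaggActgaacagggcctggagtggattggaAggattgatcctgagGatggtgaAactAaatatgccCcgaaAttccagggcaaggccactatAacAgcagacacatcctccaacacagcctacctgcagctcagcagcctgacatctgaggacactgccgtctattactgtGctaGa
Ighv14-4: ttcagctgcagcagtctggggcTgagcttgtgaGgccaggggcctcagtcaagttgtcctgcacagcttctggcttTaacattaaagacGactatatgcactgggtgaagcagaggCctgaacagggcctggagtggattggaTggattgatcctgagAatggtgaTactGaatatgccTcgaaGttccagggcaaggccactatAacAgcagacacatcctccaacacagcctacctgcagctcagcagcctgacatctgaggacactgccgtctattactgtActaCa
The last set is Ighv1-52 (chr12:115145487-115145776) and Ighv1-61 (chr12:115359140-115359429), with 4 differing positions, of which the first rose and the second fell.
Ighv1-52: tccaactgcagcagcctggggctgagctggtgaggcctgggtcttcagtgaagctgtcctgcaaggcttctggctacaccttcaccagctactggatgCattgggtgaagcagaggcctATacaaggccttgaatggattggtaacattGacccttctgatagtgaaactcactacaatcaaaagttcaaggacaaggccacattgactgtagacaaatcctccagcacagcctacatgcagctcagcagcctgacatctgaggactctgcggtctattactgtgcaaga
Ighv1-61: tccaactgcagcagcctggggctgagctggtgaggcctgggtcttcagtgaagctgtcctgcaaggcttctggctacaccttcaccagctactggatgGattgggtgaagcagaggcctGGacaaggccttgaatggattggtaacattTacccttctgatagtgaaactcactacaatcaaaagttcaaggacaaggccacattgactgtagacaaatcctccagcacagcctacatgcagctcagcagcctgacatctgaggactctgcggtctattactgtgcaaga

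The heavy V segments together took a larger part of the RNA in the carnosine group. Their summed level was 879, 892 and 884 CPM in the saline libraries and 1677, 1679 and 1684 CPM in the carnosine libraries. All carnosine libraries lay above all saline libraries. The means were 885 ± 6.13 and 1680.3 ± 3.79 CPM (SD, n = 3 each), a ratio of 1.90, with an exact two-sided permutation p of 0.10. With 3 libraries against 3 this is the smallest p that the test allows, so no measure of 1 value per library can pass 0.05. Of such measures 6 were tested, and each had an exact p of 0.10 and an adjusted p of 0.10 by Benjamini-Hochberg. In bulk RNA, fewer cells of a type and less RNA per cell cannot be told apart.

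More segments were also detected with carnosine. At least 1 count was found for 79, 77 and 78 segments in the saline libraries and for 96, 95 and 93 in the carnosine libraries, with 65 segments present in all 6. Because the carnosine libraries held more heavy V counts, the expected number was also taken at the heavy V count of the smallest library. It was 77.4 ± 0.851 for saline and 92.4 ± 0.891 for carnosine (n = 3 each), with the groups still apart. The counts were also spread more evenly: the effective number of segments, the inverse of Simpson's index, was 32.8 ± 0.426 in saline and 39.5 ± 0.470 in carnosine. The most abundant segment of a library held 8.76 ± 0.543% of the heavy V counts in saline, where it was Ighv9-3 in every library. With carnosine it held 5.90 ± 0.221% and was Ighv1-55 in every library.

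**Figure D1:**
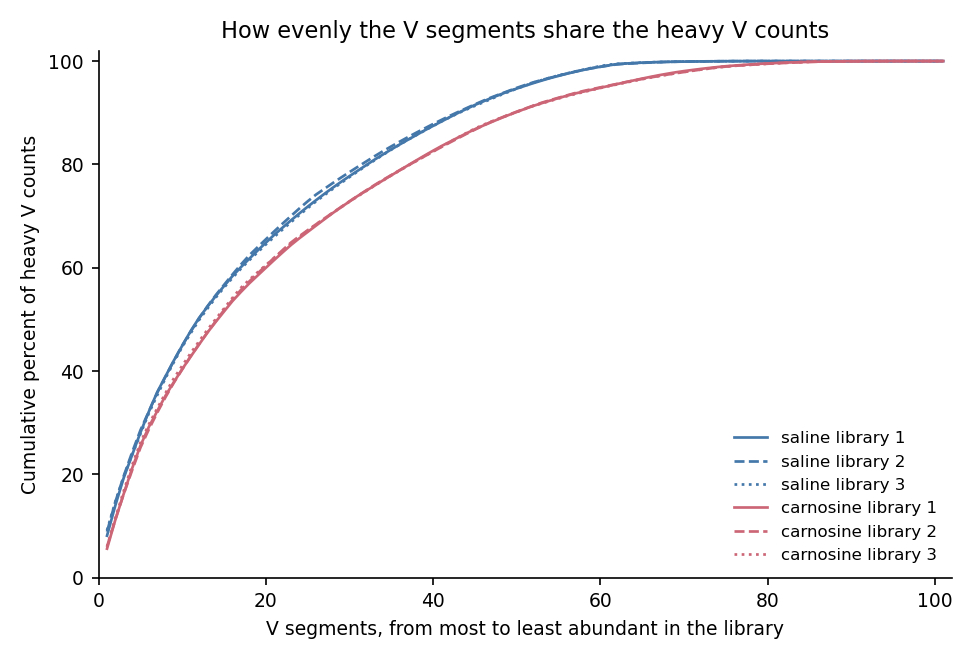
Cumulative percent of heavy V counts (vertical axis) over the V segments ranked from most to least abundant within each library (horizontal axis), with 1 line per library. The carnosine lines run below the saline lines, with an effective number of segments of 39.5 against 32.8.

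Each group had its own pattern of segments, repeated closely in its libraries. Over the 101 segments, Pearson's r of log2(CPM + 0.5) between libraries of the same group lay between 0.991 and 0.997, and between libraries of different groups between 0.571 and 0.598. Over all tested genes the same correlations were 0.991 to 0.992 within groups and 0.968 to 0.970 between them. These are correlations across genes of libraries that share a sort and a protocol, given as a description. Of the 10 segments with the highest counts in each library, 8 were common to the saline libraries, 9 to the carnosine libraries and 4 to all 6. The spread within a group was close to counting noise. The median ratio of variance to counting noise was 0.802 for 65 segments in saline and 0.742 for 87 in carnosine, where counting alone gives 0.693 and all tested genes gave 1.22 and 1.15.

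Segment by segment, 88 of the 101 passed the filter on low counts, which asks for about 0.733 CPM in 3 libraries, and 13 did not. By edgeR's quasi-likelihood test with Benjamini-Hochberg adjustment over 15533 genes, 62 were higher with carnosine, 19 were lower and 7 were not called. Over all genes tested 39.4% were called, 19.6% higher and 19.8% lower, against 70.5% higher and 21.6% lower among the tested segments. The filter itself bears on these shares: 24 segments passed only through the carnosine group and 5 only through the saline group, and such segments had to differ. Of the 59 that passed in both groups, 38 were higher, 14 lower and 7 not called, with log2 fold changes from -2.997 to 4.088. The median log2 fold change was 0.93 for all tested segments and 0.62 for those that passed in both groups, beside -4.56e-05 for all genes. A change of at least 2-fold was called higher for 43 segments and lower for 13, where 3.06% and 3.53% of all genes were so called. Libraries of the groups did not overlap for 62 segments higher with carnosine and 21 higher in saline, together 94.3% of those tested, where 52.3% of all genes did not overlap.

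**Figure D2:**
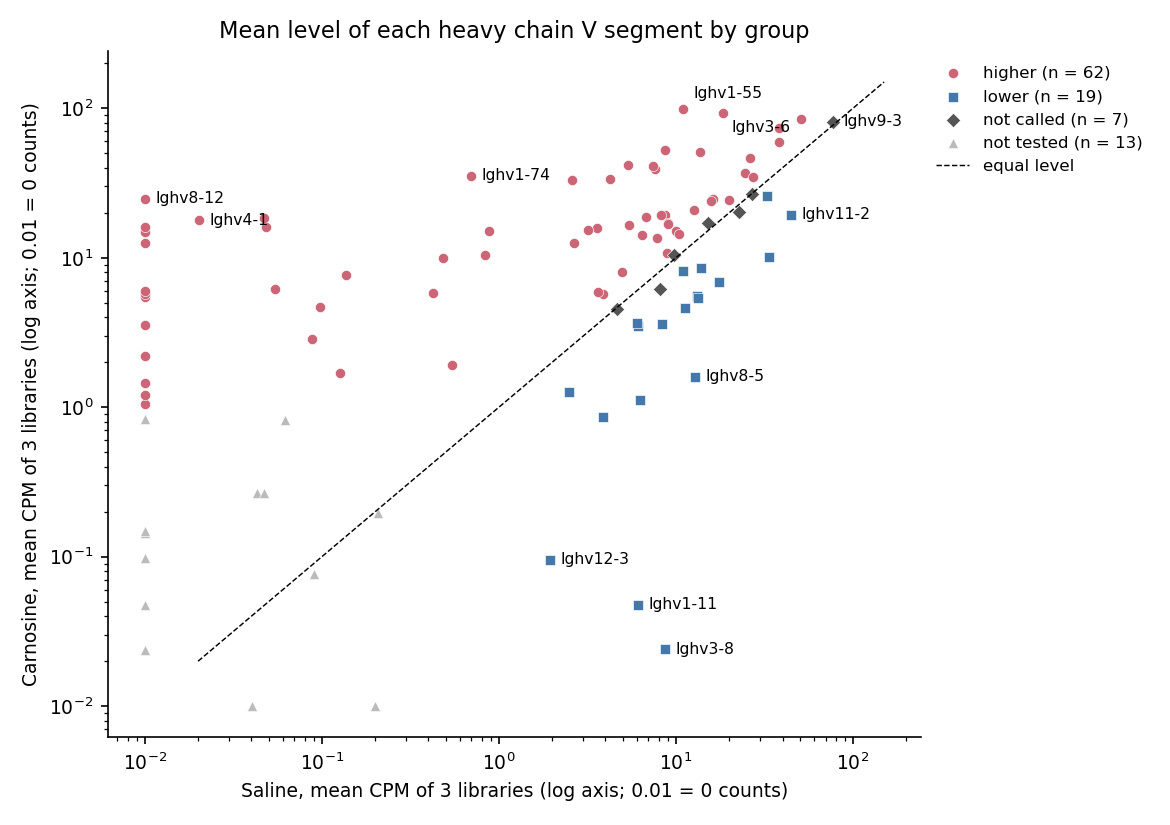
Mean CPM in saline (horizontal) and carnosine (vertical) for each V segment, both on log axes, with points at 0.01 standing for 0 counts and the dashed line for equal levels. Symbols mark 62 segments called higher, 19 lower, 7 not called and 13 not tested, and Ighv9-3 lies near the line.

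Levels of different segments were compared as CPM per kb of the longest annotated transcript. In the saline group Ighv9-3 stood highest at 221 ± 14.7 CPM per kb, followed by Ighv1-26 at 145 ± 3.78. Next came Ighv1-52 at 109 ± 6.69 and Ighv1-81 at 109 ± 1.84, then Ighv11-2 at 96.8 ± 4.80 and Ighv3-1 at 95.8 ± 4.43 (SD, n = 3). The libraries of Ighv9-3 lay above those of every other segment, while those of Ighv1-52 and Ighv1-81 overlapped, as did those of Ighv11-2 and Ighv3-1. In the carnosine group Ighv3-6 led at 264 ± 9.88 CPM per kb, ahead of Ighv1-26 at 242 ± 7.34, Ighv1-55 at 239 ± 9.29 and Ighv9-3 at 231 ± 9.92. The lowest library of Ighv3-6 lay above the highest of Ighv1-26, and the libraries of Ighv1-26, Ighv1-55 and Ighv9-3 overlapped their neighbours. By the saline order, Ighv3-6 ranked 14 and Ighv1-55 ranked 28, while by the carnosine order Ighv11-2 ranked 39 and Ighv3-1 ranked 49. The group means shared 5 of their 10 most abundant segments by count.

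Some of the abundant segments were not called. Ighv9-3 was at 71.7, 79.7 and 81.3 CPM in saline and at 82.1, 77.0 and 83.6 CPM with carnosine. The groups overlapped, and the log2 fold change was 0.06 with an SE of 0.06 (edgeR adjusted p = 0.46). Ighv5-17, the most abundant segment of subgroup Ighv5, was at 24.7, 26.4 and 29.4 CPM against 27.9, 26.1 and 26.1 CPM, and the groups overlapped here as well (edgeR adjusted p = 0.97). Others rose moderately. Ighv1-26 was at 51.8, 51.4 and 49.4 CPM in saline and at 84.3, 82.6 and 87.6 CPM with carnosine, a log2 fold change of 0.74 ± 0.04 (SE; edgeR adjusted p = 2.5e-05). Ighv1-78 went the other way, from 35.3, 32.2 and 30.8 CPM to 25.4, 27.5 and 24.5 CPM (log2 fold change -0.35, edgeR adjusted p = 0.0095), with all saline libraries above all carnosine ones.

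Of the segments that led the carnosine group, some had a lower rank in saline. Ighv1-55 was at 10.5, 12.4 and 10.1 CPM in saline and at 94.7, 101.5 and 101.1 CPM with carnosine, a log2 fold change of 3.17 ± 0.08 (SE; edgeR adjusted p = 5.5e-07). Ighv3-6 was at 17.1, 19.3 and 18.9 CPM against 94.2, 88.4 and 94.5 CPM (2.32 ± 0.06 on the log2 scale, edgeR adjusted p = 5.9e-07). In both, the groups lay far apart beside the spread of their libraries. Ighv1-53 rose from 5.38, 4.92 and 5.68 CPM to 42.3, 42.4 and 40.9 CPM, a log2 fold change of 2.98. Ighv1-82 rose from 8.71, 7.71 and 9.73 CPM to 51.3, 54.2 and 51.9 CPM, a log2 fold change of 2.59. Ighv1-72, a segment long studied in the response to the hapten nitrophenyl, rose from 12.3, 13.0 and 15.6 CPM to 50.5, 50.9 and 50.5 CPM. No library of one group reached the other in any of these.

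A set of segments had no counts at all in one group. In saline 18 segments had 0 counts in all 3 libraries, and 12 of these had at least 10 counts in every carnosine library. For such segments the fold is a lower bound, set against 3 counts over the saline group, and covers counting error only. Ighv8-12 was at 25.6, 24.8 and 23.4 CPM with carnosine, at least 364-fold higher. Ighv1-85, the last segment of the locus, was at 15.4, 15.8 and 16.7 CPM (at least 236-fold), and Ighv2-2 at 14.0, 15.1 and 15.8 CPM (at least 221-fold). Ighv9-2 was at 11.6, 13.5 and 12.4 CPM, at least 184-fold higher. These 4 segments belong to 4 subgroups and lie in the D-proximal or the D-distal part of the locus. Smaller levels were seen for Ighv1-49 (at least 87.6-fold), Ighv14-1 (at least 84.0-fold) and Ighv2-3 (at least 81.4-fold). Ighv4-1, the sole segment of its subgroup, had 1 saline library at 0.0605 CPM and the others at 0, against 18.7, 17.7 and 17.0 CPM with carnosine. The carnosine libraries of each segment lay near one another. All segments named here passed the filter only through the carnosine group, where they are high. Their saline levels at or near 0 are thus no support for a difference.

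The reverse pattern was rarer. With carnosine 2 segments had 0 counts in all libraries, Ighv15-2 and Ighv1-43, both low in saline. Ighv3-8 was at 8.17, 8.10 and 9.81 CPM in saline, while 1 carnosine library held 0.0719 CPM and the others 0. Ighv1-11 was at 6.84, 5.44 and 6.08 CPM in saline, with 0.144, 0 and 0 CPM with carnosine. Both passed the filter only through the saline group, where they are high, so their near absence with carnosine is no support for a difference. Counting over 3 libraries, 28 segments were at least 10-fold higher with carnosine and 3 at least 10-fold higher in saline, the third being Ighv12-3. These counts include segments that passed the filter through a single group and so had to differ. The share of all genes at this fold was not computed, so the counts are a description only.

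**Figure D3:**
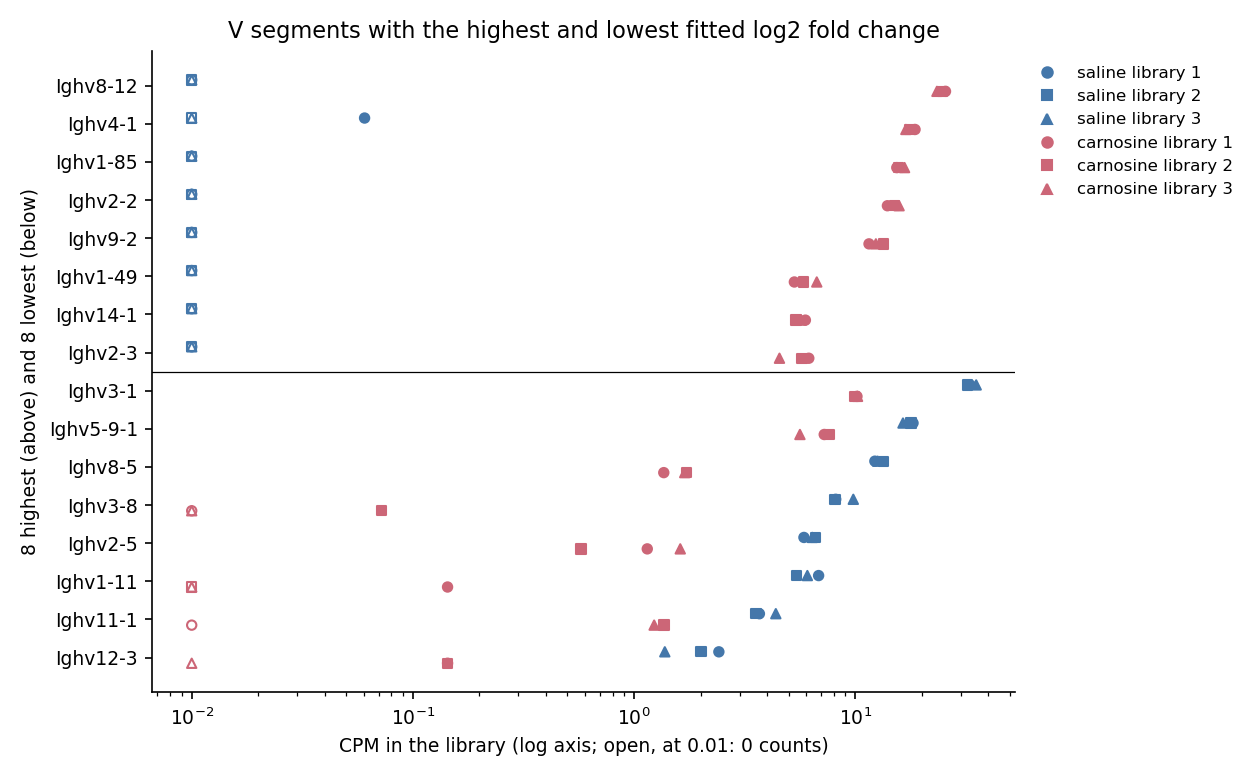
CPM per library on a log axis for the 8 V segments with the highest fitted log2 fold changes (above the line) and the 8 with the lowest (below), with open symbols at 0.01 for 0 counts. The segments were picked for these differences and for groups that do not overlap, so the lack of overlap is no result. The fitted values of segments with 0 counts in a group are no bounds.

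By subgroup, Ighv1 went from 457 ± 5.76 to 1075 ± 9.59 CPM (SD, n = 3). Its share of heavy V counts was 52.5, 51.3 and 50.9% in saline and 63.5, 64.1 and 64.4% with carnosine, so that all carnosine libraries were above all saline ones (difference 12.4 percentage points, exact two-sided permutation p = 0.10). Without each library's most abundant segment the shares were 56.5% in saline and 61.7% with carnosine, a difference of 5.21 points. The segment removed was Ighv9-3 in saline, which is outside Ighv1, and Ighv1-55 with carnosine, which belongs to it. By design this raises the saline share and lowers the carnosine share, so the segments compared are unlike. Of the 46 tested Ighv1 segments 37 rose, 6 fell and 3 were not called, and the summed level of Ighv1 was 2.36 times higher. Calls by subgroup, here and below, stand against 19.6% of all tested genes higher and 19.8% lower. They include segments that passed the filter through a single group and so had to differ. The Ighv8 subgroup was 3.39 times higher and Ighv14 was 2.42 times higher in summed CPM.

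Subgroups Ighv11, Ighv12 and Ighv13 were lower. Ighv11-2, whose product in B-1 cells is known to bind phosphatidylcholine, was at 46.8, 44.6 and 42.4 CPM in saline and at 20.7, 18.9 and 18.4 CPM in the other group (log2 fold change -1.21 ± 0.07 SE, edgeR adjusted p = 1.7e-05). Ighv12-3, also used by B-1 cells against phosphatidylcholine, was at 2.42, 2.01 and 1.38 CPM against 0.144, 0.144 and 0 CPM, a ratio of 20.3 with a 95% counting interval of 7.64 to 76.0. In both, every saline library was above every carnosine library. Ighv12-3 passed the filter only through the saline group, where it is high, so its lack of overlap is no support for a difference. Ighv11-1 was at 3.69, 3.56 and 4.38 CPM against 0, 1.37 and 1.23 CPM. It passed the filter only through the saline group, where it is high, so its call (edgeR adjusted p = 0.024) is no support for a difference. That call was lost with the DESeq2 Wald test (adjusted p = 0.18) and without any 1 of the saline libraries, with edgeR adjusted p from 0.056 to 0.059. Ighv13-2, the only segment of its subgroup, fell from 14.3, 14.1 and 11.8 CPM to 5.60, 4.03 and 6.48 CPM.

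Both tested segments of Ighv7 and both of Ighv10 rose, and the summed levels of these subgroups were 1.59 and 1.60 times higher with carnosine. Ighv7-1 passed the filter only through the carnosine group, so its call is no support for a difference. Ighv5 had 4 segments higher, 2 lower and 2 not called, and its share of heavy V counts was 9.15% in saline and 5.73% with carnosine, although its summed level was 1.19 times higher. Ighv9 was similar, with 9.47% against 6.04%. Ighv6 was at 33.7 ± 0.829 CPM in saline and 33.1 ± 1.93 CPM with carnosine (n = 3 each), with Ighv6-3 higher and the other tested segment, Ighv6-6, lower. Ighv3 held opposite changes, since Ighv3-1 fell from 33.1, 32.3 and 35.3 CPM to 10.2, 9.93 and 10.3 CPM while Ighv3-6 rose. The V exons of this pair were 93.5% identical. Over the 15 subgroups, exact two-sided permutation tests of the shares gave p = 0.10 for 14 (0.11 after adjustment) and 0.40 for Ighv2.

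**Figure D4:**
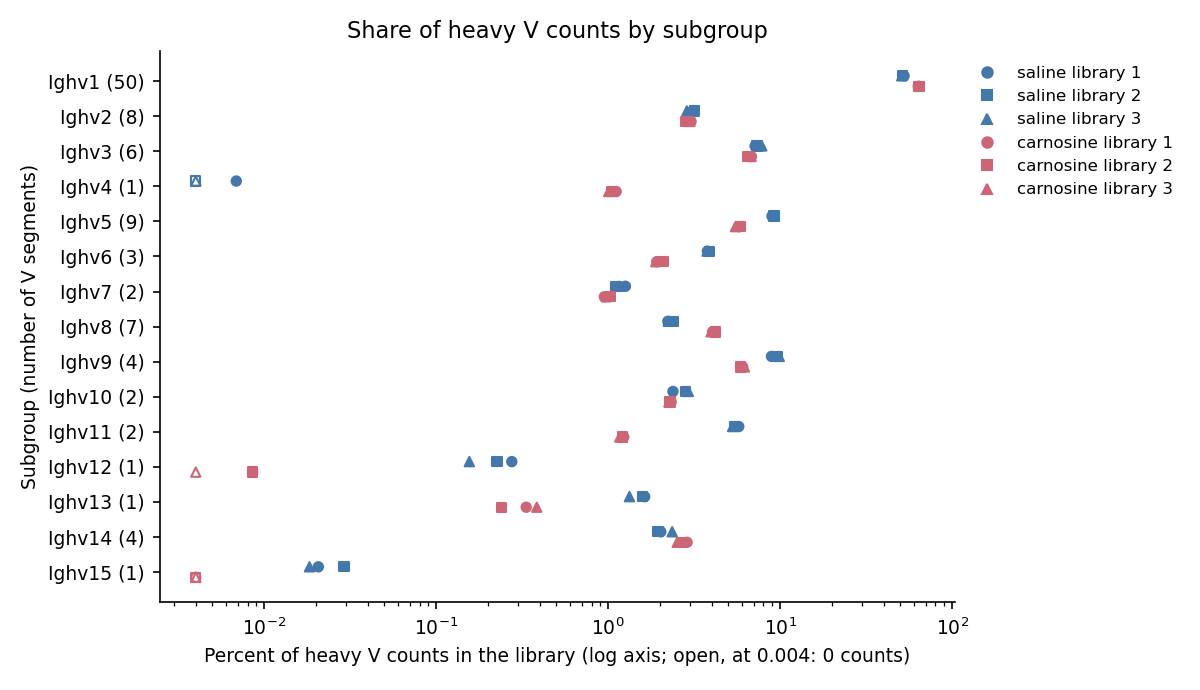
Percent of heavy V counts per library (log axis) for each of 15 subgroups, with the number of V segments in brackets and open symbols at 0.004 for 0 counts. Ighv1 lies between 50.9 and 52.5% in saline and between 63.5 and 64.4% with carnosine, and the groups overlap in Ighv2.

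Some close copies moved in opposite or unequal ways. Ighv8-5 was at 12.3, 13.4 and 12.6 CPM in saline and at 1.36, 1.73 and 1.70 CPM with carnosine (8.02-fold lower, 95% counting interval 6.20 to 10.5, edgeR adjusted p = 3.7e-06). Its copy Ighv8-8, 96.2% identical over the V exon, was at 7.26, 7.90 and 7.13 CPM against 39.1, 43.0 and 40.7 CPM (log2 fold change 2.46, edgeR adjusted p = 9.1e-07). The saline group was thus higher for the first and lower for the second, with no overlap in either. Ighv2-5, 97.0% identical to Ighv2-2, fell from 5.87, 6.61 and 6.40 CPM to 1.15, 0.576 and 1.62 CPM. Ighv14-2 rose slightly, from 8.35, 9.07 and 9.16 CPM to 11.3, 10.9 and 10.1 CPM, while Ighv14-4 was at 0.0605, 0 and 0.0811 CPM in saline and at 20.6, 17.6 and 16.8 CPM with carnosine. Ighv1-61 fell from 7.99, 9.07 and 7.95 CPM to 3.16, 3.96 and 3.70 CPM, and Ighv1-52, 98.7% identical to it, rose from 38.5, 40.7 and 36.0 CPM to 73.9, 74.0 and 73.8 CPM. Each of these segments had groups that did not overlap, but the sets were chosen after their values were seen. Ighv2-5 passed the filter only through the saline group, and Ighv2-2 and Ighv14-4 only through the carnosine group. For these the lack of overlap is no support for a difference. Of 49 pairs at least 95% identical, both segments were called in 36. In 4 of those the calls were opposite and in the others they had the same direction. Taken singly, 92.0% of tested segments were called, beside 39.4% of all genes. With such copies summed before the fit, 39 units were higher and 14 lower of 58 tested. Ighv1-62-2 and Ighv1-71 have identical V exons, so how the counts of that pair were divided cannot be read from the V exon.

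The ratio of carnosine to saline was larger toward the D-distal end. The span was cut into equal lengths: the D-proximal part held 38 segments, the middle 34 and the D-distal part 29. Summed levels went from 350 ± 6.08 to 465 ± 7.67 CPM in the D-proximal part, 1.33 times higher with carnosine. In the middle they went from 343 ± 4.29 to 594 ± 1.76 CPM, 1.73 times higher, and in the D-distal part from 192 ± 1.42 to 622 ± 11.6 CPM, 3.24 times higher (SD, n = 3). In the D-proximal part 19 of 34 tested segments rose and 11 fell. In the middle 19 of 28 rose and 6 fell, and in the D-distal part 24 of 26 rose and 2 fell. Over all genes tested 19.6% were called higher and 19.8% lower. The counts by part include segments that passed the filter through a single group and so had to differ. The D-distal share of heavy V counts was 22.0, 21.5 and 21.6% in saline and 36.3, 37.5 and 37.3% with carnosine, with no overlap (exact two-sided permutation p = 0.10). As a percent of the segments detected, the D-distal part was at 30.8% in saline and 30.3% with carnosine.

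Position and subgroup go together in this locus, since 26 of the 29 D-distal segments and none of the D-proximal ones belong to Ighv1. Within Ighv1 alone, the 24 segments of the middle part went from 272 ± 4.68 to 519 ± 3.34 CPM, 1.91 times higher with carnosine. The 26 D-distal ones went from 184 ± 1.54 to 556 ± 10.9 CPM, 3.02 times higher. The other subgroups in the middle part were at 70.7 ± 3.62 CPM in saline and 74.5 ± 2.17 CPM with carnosine, 1.05 times higher. The 3 D-distal segments of other subgroups were at 7.43 ± 0.413 and 65.6 ± 1.98 CPM (SD, n = 3), 8.83 times higher. Both tested ones, Ighv8-8 and Ighv8-12, rose. Ighv8-12 passed the filter only through the carnosine group, where it is high, so its call is no support for a difference. The share of position and of subgroup in these differences was not tested.

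**Figure D5:**
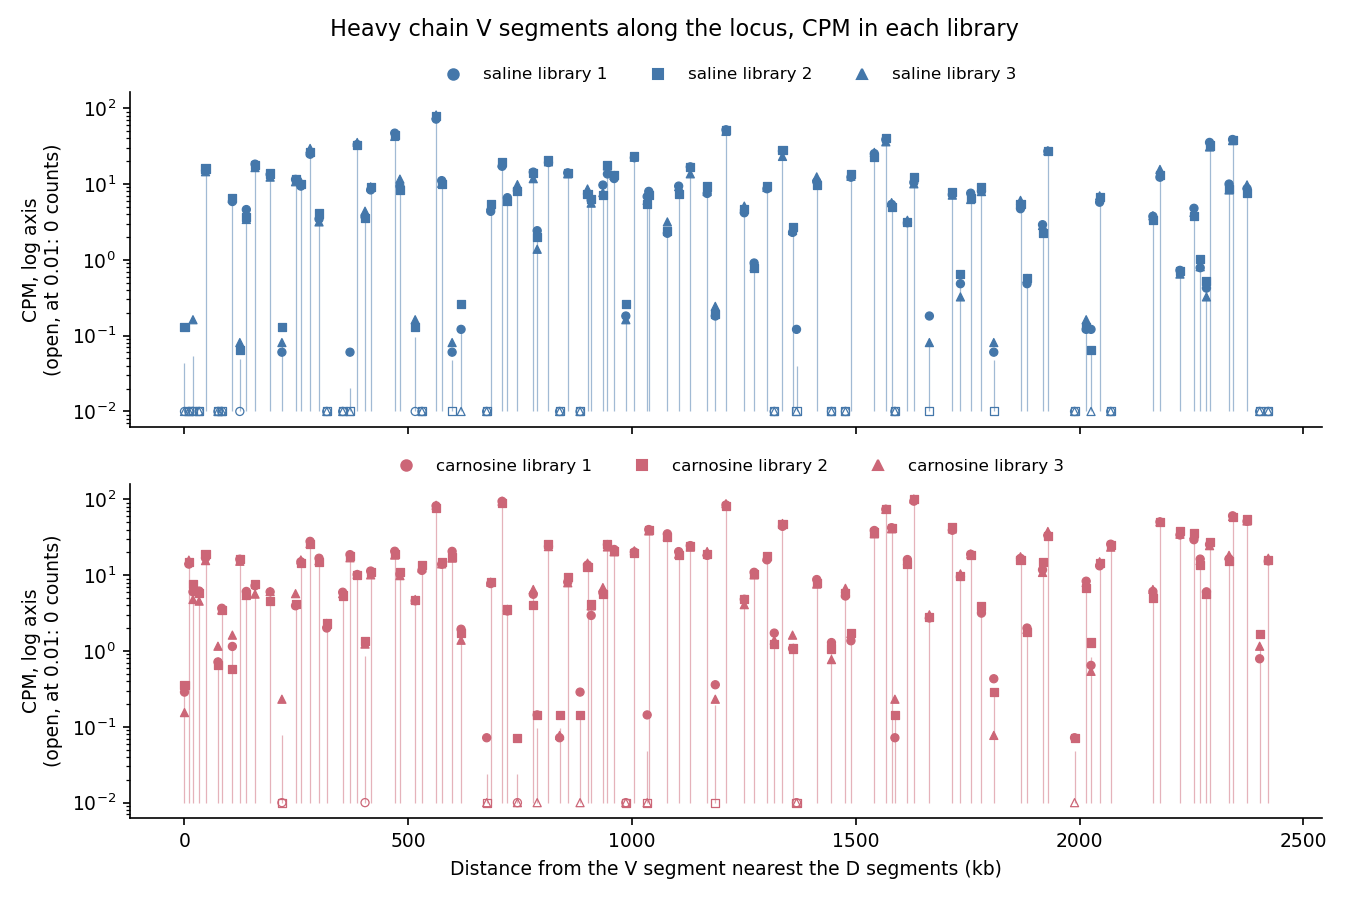
CPM per library (vertical, log axis) for each V segment by its distance in kb from the V segment nearest the D segments (horizontal), saline above and carnosine below, with open symbols at 0.01 for 0 counts. Summed levels were 3.24 times higher with carnosine in the farthest part of the span and 1.33 times higher in the nearest.

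Other antibody genes were measured beside the V segments, and the counts below stand against 19.6% of all tested genes called higher and 19.8% lower. Of 12 constant genes 11 were tested, of which 8 rose and 1 fell, and their summed level was 3338 to 3539 CPM in saline and 5891 to 6139 CPM with carnosine. The one that fell was Ighm, the constant gene of IgM, at 691 ± 16.0 CPM in saline and 280 ± 3.06 CPM with carnosine. Igha, that of IgA, rose from 1501 ± 119 to 3287 ± 115 CPM, and Ighg2b, that of IgG2b, from 3.93 ± 0.463 to 167 ± 4.23 CPM. Ighm made up 30.0 ± 1.57% of heavy constant counts in saline and 7.08 ± 0.270% with carnosine. Heavy V counts per heavy constant count were 0.384 ± 0.0229 and 0.425 ± 0.0116. The summed level of kappa chain V segments, which serve the light chain, also differed, from 952 ± 10.4 to 1636 ± 19.0 CPM, with 58 higher and 10 lower of 80 tested. Heavy V per kappa V counts were 0.930 ± 0.0155 and 1.03 ± 0.0143 (SD, n = 3 throughout).

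Markers of cells that the sort should exclude were present, and their part in the V segment differences was not tested. The counts called in these lists also stand against 19.6% of all tested genes higher and 19.8% lower. Of 12 plasma cell genes all were detected, 8 rose and 0 fell, with a summed level of 542 to 546 CPM in saline and 593 to 891 CPM with carnosine. Jchain, which links IgA and IgM units, was at 583, 575 and 281 CPM in the carnosine libraries and did not pass the test (edgeR adjusted p = 0.11), while the heavy V sum was alike in those libraries. Of 11 B-lineage genes 3 rose and 2 fell, with summed levels of 39.5 to 41.9 and 43.4 to 47.3 CPM. That share called is near the 39.4% of all genes. Of 7 genes of early B cells and V(D)J joining, 6 were tested, 2 rose (Rag1 and Rag2) and 1 fell (Dntt), with sums of 154 to 171 and 128 to 143 CPM. Of 5 T-cell genes 3 were tested and rose, with sums of 4.78 to 5.77 and 14.6 to 16.8 CPM. No listed marker was at 0 over the 6 libraries. Of the genes behind the sort, Kit was at 329 ± 10.2 and 377 ± 4.10 CPM and Ly6a at 30.2 ± 8.11 and 29.1 ± 8.77 CPM. Transcripts of the excluded surface proteins were present as well, with Cd34 at 328 ± 18.9 and 300 ± 4.69 CPM and Flt3 at 210 ± 8.63 and 180 ± 2.50 CPM.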

How the data were processed

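RNA sequencing had been done on 3 saline and 3 carnosine libraries of poly-A RNA with a stranded paired-end kit on a NovaSeq instrument, per the labels' protocols. The submitters' processing notes name CASAVA 1.8, HISAT2, StringTie, edgeR and GRCm38, with no roles. The annotation and the counting of reads fitting several genes: not given in the sources used here. The deposited table gives whole-number counts, not normalized, and FPKM values per gene and library, per the file headers. The deposited FPKM values fit division by the summed length of a segment's transcripts for 89 of 101 segments (within 1 base). That number includes segments with a single transcript, for which the summed length is the only length. Of the 43 segments with several transcripts some did not match. FPKM can be lower for segments with several transcripts, so levels between segments use CPM per kb of the longest transcript.

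Groups and replicate numbers come from the sample titles. Counts of all genes were fitted with edgeR 4.0.16 in R 4.3.3 (filterByExpr with a minimum count of 10, TMM, quasi-likelihood F-test, no covariate), which tested 15533 of 53465 genes, with Benjamini-Hochberg adjustment at 0.05. Standard errors were taken as the absolute log2 fold change over the root of F. Measures with 1 value per library were compared by exact two-sided permutation with scipy 1.17.1. Library totals were 12602067 to 16866534 counts, and bounds and intervals (95%, exact) cover counting error only. A group at 0 was set at 3 counts over its 3 libraries. The fit was tested on simulated data.

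Same-numbered libraries did not deviate together (correlations -0.003, 0.027 and 0.027 over 15533 genes), so the numbers were not used as pairs. No libraries were counted as duplicates. Over all genes the spread within groups exceeded counting noise, but this cannot tell whether the libraries of a group are separate mice. Segment identity was computed over V exons of GENCODE M21. Alternatives were DESeq2 1.42.0, limma-voom (limma 3.58.1), other filters and scalings, a replicate block and each library left out.

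Named segments are the 10 most abundant of each group, the 8 called with the largest fitted log2 fold change each way and no overlap between groups, the most abundant of each subgroup and both ends of the locus. Ighv14-2, Ighv14-4, Ighv1-61, Ighv1-62-2, Ighv1-71, Ighv6-6, Ighv3-4, Ighv1-43 and Ighv8-11, and the sequences shown, were chosen after their values were seen. The segments and lists were chosen with earlier results of these data known.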

Additional observations from a re-analysis of the deposited data

How the results depend on the processing

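Of the alternatives to the 8 summary measures, 85 kept the direction (for a count of segments, a value within 1.5 times) and 2 did not. For the 6 measures with 1 value per library, leaving out a library could not reverse the direction, since the groups did not overlap. A replicate block leaves the mean difference of those measures unchanged. Such alternatives are no support. Among the 85, the Ighv1 share without the most abundant segment differed by 5.21 points against 12.4. Summing segments at least 95% identical, an alternative chosen after seeing the data, gave 39 higher units against 62 segments, since fewer units (58) were tested. Taking the D-distal part as a percent of segments detected gave a difference of -0.48 percentage points (exact permutation p = 0.50) against 15.3 for counts, and the cause was not tested. Leaving out each library gave 60 to 62 segments higher and 17 to 19 lower, a summed log2 difference of 0.92 to 0.93, 16 to 17.5 more segments detected and an effective number higher by 6.49 to 6.94. The D-distal difference was then 15.1 to 15.7 points, the Ighv1 difference 12.1 to 12.9 points and the top segment's difference -3.17 to -2.65 points.

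With the replicate number as a block, 61 segments were higher and 18 lower, and the paired sign-flip permutation cannot go below p = 0.25. The DESeq2 Wald test gave 60 and 16, and no filter gave 63 and 20 of 101. For named segments 472 values kept their call. Ighv5-17, never called, changed sign from -0.0045 to 0.0075 with limma-voom and lay between -0.061 and 0.063 with single libraries left out (above 0 without saline library 3, at 0.012 without carnosine library 2 and at 0.013 without carnosine library 3). Ighv14-3, not called at 0.10, ranged from -0.0043 without saline library 2 to 0.23 without saline library 3. The depth limits segments under 3 counts per group, and the labels do not tell whether libraries are separate mice.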

Other observations

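Segment classes that the main account leaves out were near the floor. Of 70 heavy V pseudogenes 16 had a count, with a summed level of 0.811 to 1.68 CPM in saline and 0.848 to 1.51 CPM with carnosine, so the groups overlapped while the functional segments did not. Heavy D segments had counts in 5 of 17 rows. The 4 heavy J segments were all detected, at 0.665 to 1.14 CPM in saline and 1.44 to 1.70 CPM with carnosine.

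Ighv7-1, known as T15 in antibodies to phosphorylcholine, had 0 counts in saline and 2.01, 2.30 and 2.31 CPM with carnosine, at least 32.6-fold higher. Ighv5-2, known as VH81X and often used in early B-cell joins, had 0, 2 and 0 counts in saline and 4, 5 and 2 with carnosine and was not tested. Ighv1-74 was at 0.726, 0.713 and 0.649 CPM in saline and 33.9, 37.8 and 34.7 CPM with carnosine, a ratio of 50.7 with a 95% counting interval of 35.6 to 74.9, and it passed the filter only through the carnosine group. Ighv7-1 and Ighv1-74 were chosen after their values were seen. Ighv1-62-2 and Ighv1-71, with V exons 100% identical, had log2 fold changes of 1.63 and 0.70. Of the 101 segments 2 overlap another annotated gene, Ighv1-5 and Ighv1-62-1, so their counts are uncertain.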
